A study of Homo sapiens and Mus musculus with 29 samples.

Results

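Imprinted genes are expressed from only 1 parental copy, which is fixed by DNA methylation laid down at imprinting control regions in the egg or the sperm. Many of them act on growth, and their silencing or release is a familiar event in tumors. This account covers 10 of them, chosen by symbol from the 58719 genes of a table of human RNA-seq values, with the 10 mouse orthologs among the 54446 genes of a mouse table. SNRPN, a component of the spliceosome encoded in the imprinted 15q11 region, was picked because its level fell in metastases, and the other 9 genes were added by name. They are IGF2 and H19, CDKN1C and KCNQ1OT1 (all at 11p15), MEG3 and DLK1 (14q32), PEG3 (19q13), PEG10 (7q21) and MEST (7q32).

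The human samples were 21 libraries of HPAF-II, an established human line of classical pancreatic ductal adenocarcinoma. The cells were injected into the pancreas of NSG mice, which lack functional lymphocytes. All carry the genotype label CRISPR. There were 3 control tumors (Cas9 and empty vector) and 3 tumors labeled FOXA1-OE, in which FOXA1, a pioneer transcription factor, was overexpressed from a lentivirus on the same Cas9 background. The HNF4G-KO label (with empty vector) was carried by 4 tumors and 2 metastases. The double label HNF4G-KO + FOXA1-OE, called the double genotype below, was carried by 5 tumors and 4 metastases. HNF4G is a nuclear receptor of classical tumors, and its knockout line was a pool of 3 clones with frameshift mutations, so that all samples of both knockout groups descend from those clones. The 2 metastases labeled HNF4G-KO came from the peritoneum. Of the 4 of the double genotype, 1 came from the spleen, 2 from fat and 1 from the peritoneum. Tumors 2 and 3 of the double genotype shared a mouse, as did its metastases 1 and 2, and each such pair was averaged before any test. The mouse samples were 4 libraries of a KPC tumor line and 4 of a KPC liver metastasis line, from a genetically engineered mouse model of pancreatic cancer, all with the genotype label WT. Each KPC group is a single line, and the labels do not tell whether its replicates were separate cultures, so p-values there measure only the spread between these libraries.

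Values are RPKM, the reads of a gene divided by its length and by the total of its library. Depth, worked out from the steps between low values, was 33.1 to 69.6 M reads in HPAF-II libraries and 30.1 to 44.4 M in KPC libraries. HNF4G RNA went against the labels, at 2.48 to 3.47 RPKM in control tumors and 5.72 to 8.42 RPKM in tumors labeled HNF4G-KO. A gene disrupted by frameshift may still be transcribed, so RNA is no check on protein loss, and every direction below follows the labels. FOXA1 was at 0.519 to 0.932 RPKM in control tumors and at 6.32 and 8.18 RPKM in tumors 1 and 2 labeled FOXA1-OE. The tumor labeled FOXA1-OE 3 had only 0.763 RPKM, inside the range of the controls, and metastases 1, 3 and 4 of the double genotype had 0.535, 1.30 and 1.55 RPKM, against 1.26 to 1.87 RPKM in tumors labeled HNF4G-KO. All 12 epithelial markers (EPCAM, CDH1, KRT8 and others) reached 1 RPKM in every HPAF-II group, with sums from 4011 to 7836 RPKM. Mouse host RNA can align to the human genome, and the 12 host stroma markers, mostly collagens, summed to between 34.5 and 442 RPKM. The 12 markers of host pancreas summed to 0.596 to 537 RPKM in tumors and to 0.573 to 0.983 RPKM in metastases, where none of the 12 reached 1 RPKM. The 8 adipose markers summed to 21.3 to 72.4 RPKM. A list of 8 blood markers, mostly LYZ, whose source in tumor or host cells was not tested, summed to 62.8 RPKM in the tumor labeled FOXA1-OE 3 and 146 RPKM in tumor 5 of the double genotype, against 469 to 747 RPKM in the other 19 libraries. These 2 libraries stand apart. Some results are also given without them, as stated there, and all others keep them.

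Among the 10 genes only SNRPN, H19, MEG3 and MEST have a window in the set of RefSeq promoters used here (GRCh38.p14). Each window is the 250 bases before a transcription start. The other members, IGF2, DLK1, PEG3, PEG10, CDKN1C and KCNQ1OT1, are named only. Because imprinting is written in methylation of CG pairs, these pairs are set in capitals below for the genes whose levels differed most between groups. The window of SNRPN start 3 (chr15:24954737-24954986, plus strand) is also that of SNURF, a short protein encoded on the same transcript, and lies at the imprinting center of the region. The window of SNRPN start 1 (chr15:24856321-24856570, plus strand) belongs to an upstream start. MEG3 start 1 is at chr14:100825858-100826107, plus strand.
SNRPN start 3: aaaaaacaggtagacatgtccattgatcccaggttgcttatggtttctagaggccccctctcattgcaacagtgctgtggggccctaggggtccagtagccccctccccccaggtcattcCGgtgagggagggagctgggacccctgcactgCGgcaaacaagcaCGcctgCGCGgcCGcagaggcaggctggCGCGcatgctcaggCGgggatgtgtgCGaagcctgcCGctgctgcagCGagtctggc
SNRPN start 1: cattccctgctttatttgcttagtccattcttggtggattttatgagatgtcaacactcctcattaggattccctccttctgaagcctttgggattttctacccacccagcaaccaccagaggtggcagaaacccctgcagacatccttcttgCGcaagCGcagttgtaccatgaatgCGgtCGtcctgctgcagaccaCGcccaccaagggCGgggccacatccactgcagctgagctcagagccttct
MEG3 start 1: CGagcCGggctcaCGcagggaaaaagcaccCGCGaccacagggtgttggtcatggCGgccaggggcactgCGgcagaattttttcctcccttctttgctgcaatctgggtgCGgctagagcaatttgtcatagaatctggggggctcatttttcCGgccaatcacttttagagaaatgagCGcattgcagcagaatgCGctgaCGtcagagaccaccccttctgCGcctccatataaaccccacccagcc
These windows hold 12, 6 and 13 CG pairs, against a median of 11 in 34788 promoter windows of the same length, of which 48.5% hold at least as many as SNRPN start 3. The motif TGTTTAC, the core that FOXA factors bind, was searched on both strands and is in 2.98% of all windows. CAAAGTCC, a form of the HNF4 site, is in 1.01% of all windows. Neither string was found in any window of the 4 genes.

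SNRPN encodes SmN, a core protein of the small nuclear ribonucleoproteins that splice mRNA, and it is best known from neurons and from Prader-Willi syndrome. The gene (ENSG00000128739.22, protein coding) lies on chromosome 15 from 24823637 to 24978723 on the plus strand in GRCh38. In control tumors it was at 8.18, 9.84 and 5.78 RPKM, and in tumors labeled FOXA1-OE at 10.1, 7.21 and 19.5 RPKM. Tumors labeled HNF4G-KO had 1.92, 2.44, 2.20 and 3.51 RPKM. The 5 tumors of the double genotype had 3.70, 2.11, 4.63, 4.60 and 4.86 RPKM. No tumor of either HNF4G-KO label reached the lowest of the control and FOXA1-OE tumors. The metastases were lower again, at 0.840 and 1.47 RPKM for HNF4G-KO and at 1.32, 1.78, 1.19 and 1.17 RPKM for the double genotype.

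Between tumors labeled HNF4G-KO (2.52 ± 0.697 RPKM, SD, n = 4) and controls (7.93 ± 2.04 RPKM, SD, n = 3), SNRPN fell by 1.34 on the log2(RPKM + 1) scale (SE 0.27, limma adjusted p = 0.0113). This scale understates the change of genes of low level. Of the 4 members that passed the filter of a mean of 1 RPKM, 3 passed the test here, 1 higher and 2 lower, where 12.1% of the 14307 genes tested were called. Groups that do not overlap were common in this comparison, at 46.4% of the genes tested (25% higher and 21.3% lower). Without control tumor 2, the one of 537 RPKM of host pancreas markers, SNRPN was outside the threshold (-1.18, adjusted p = 0.0668), as were the other members. With the host stroma level as a covariate the difference was -1.45 (adjusted p = 0.00644). The 12 epithelial markers summed to 4108 to 5157 RPKM in control tumors and 5642 to 7066 RPKM in tumors labeled HNF4G-KO, and 5 of them (CEACAM5, CEACAM6, TFF1, AGR2 and GATA6) rose there. Across the 21 libraries, which share mice and groups, log2 levels of SNRPN had a Pearson r of 0.63 with host pancreas markers (Spearman rho 0.62), -0.61 with epithelial markers (rho -0.59) and -0.25 with host stroma markers (rho -0.29). These libraries include the metastases, whose low SNRPN chose the gene. The part of host pancreas and of epithelial content in the fall was not tested. In the double genotype (mean of 4.13 ± 0.710 RPKM, SD, n = 4 mice) against tumors labeled FOXA1-OE (12.3 ± 6.44 RPKM, SD, n = 3), SNRPN fell by 1.29 (SE 0.27, limma adjusted p = 0.0120). In a fit of only these 2 groups the call was lost (adjusted p = 0.115). Without the tumor labeled FOXA1-OE 3, the one of 19.5 RPKM and of control-like FOXA1, the fall was 0.92 in size on the same scale (log2 difference -0.92, adjusted p = 0.0292). Here 2 of the 4 members passed the test, both lower, against 7.86% of all genes (3.29% higher, 4.57% lower), and 14.6% of all genes had groups without overlap (9.29% lower). Against control tumors the double genotype differed by -0.80 (SE 0.27, adjusted p = 0.120), with no member called and 4.71% of all genes called (2.13% higher, 2.58% lower). Its range lay under that of the controls, as for 12.2% of all genes (18.9% in either direction). FOXA1-OE against control gave 0.49 (SE 0.29, adjusted p = 0.839), and 0.12 without the tumor labeled FOXA1-OE 3. None of the 4 members over the filter separated there, where 9.26% of all genes tested did. The double genotype against HNF4G-KO gave 0.54 (SE 0.25, adjusted p = 0.248). These comparisons share groups, so their values are not independent of each other. In bulk RNA, fewer cells of a type and less RNA per cell cannot be told apart.

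**Figure D1:**
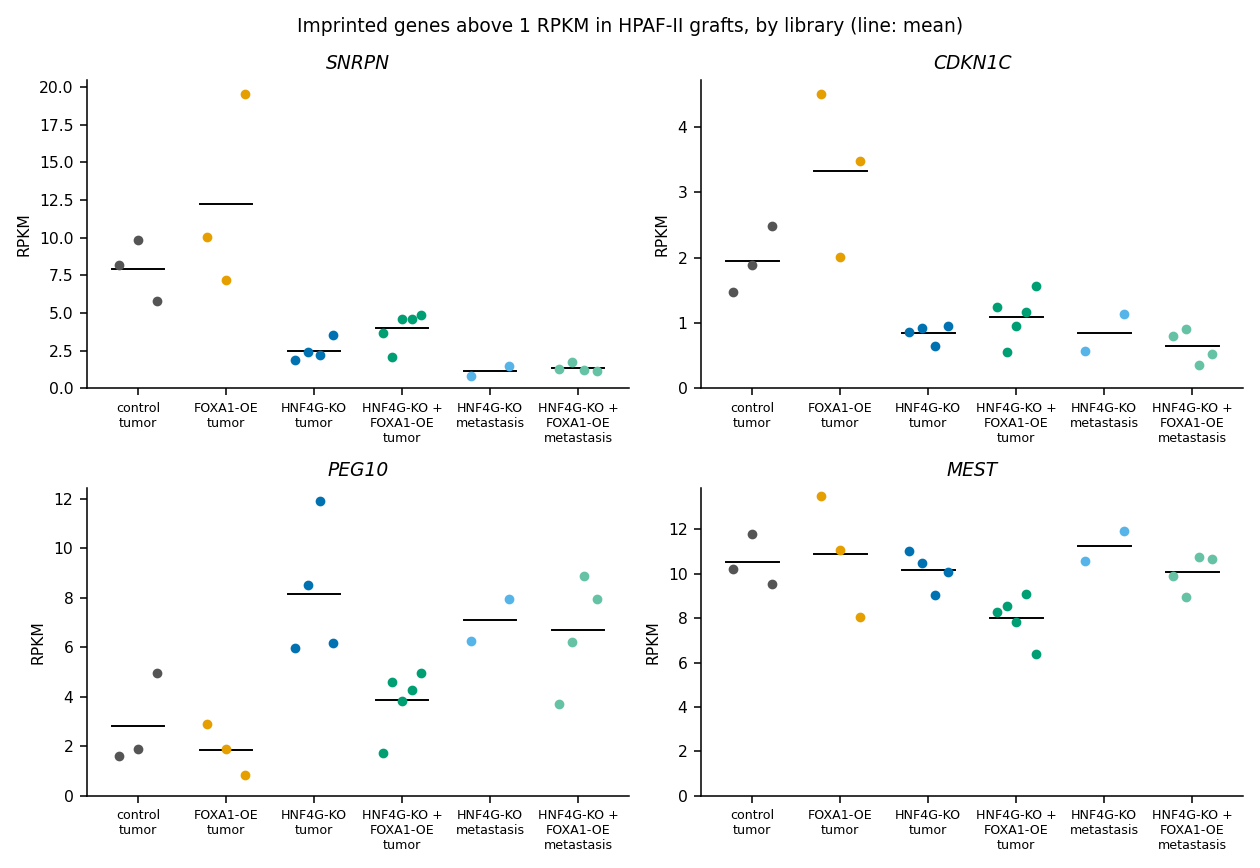
RPKM (linear axis from 0) of the 4 imprinted genes that passed the filter, with a point for each of the 21 HPAF-II libraries and a line at the mean over libraries of the group. SNRPN and CDKN1C were lower in every tumor labeled HNF4G-KO than in every control tumor, PEG10 was higher, and MEST overlapped. Of all genes tested, 21.3% were lower and 25% higher without overlap in this comparison.

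The fall of SNRPN in metastases is what chose the gene and is given as a description with no test. Its mean was 1.16 ± 0.449 RPKM (SD, n = 2 mice) in metastases labeled HNF4G-KO, a log2 difference of -0.70 from the tumors of that genotype. In that comparison 32.9% of all genes had groups without overlap, 21% of all genes lower. In metastases of the double genotype it was 1.30 ± 0.213 RPKM (SD, n = 3 mice), a log2 difference of -1.13, in a comparison where 6.5% had groups without overlap (4.09% higher, 2.4% lower). The lowest of these tumors was at 1.92 RPKM and the highest metastasis at 1.78 RPKM. In the 4 mice that gave both a tumor and a metastasis, SNRPN was lower in the metastasis of each, by log2 differences between -1.37 and -0.87. The share of all genes lower in each of these mice was not worked out. Host stroma markers summed to 56.7 to 77.9 RPKM in tumors and 82.0 and 442 RPKM in metastases labeled HNF4G-KO. They summed to 49.9 to 126 RPKM in primary samples of the double genotype and to 85.7 to 234 RPKM in its metastases. With the stroma level as a covariate the SNRPN differences were -0.80 and -1.22. Host pancreas markers were also lower in metastases, at 0.573 to 0.983 RPKM, against 0.596 to 13.7 RPKM in tumors labeled HNF4G-KO and 0.688 to 34.5 RPKM in those of the double genotype, and their part in the fall was not tested.

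The neighbors of SNRPN on chromosome 15 help to place these values. SNHG14 is a long noncoding RNA whose annotation here begins at the end of SNRPN. It runs through the snoRNA clusters of the region and overlaps the UBE3A gene. Where its transcription starts was not tested. SNURF shares a start with SNRPN. Reads in shared exons may be assigned to either of SNRPN and SNURF, so the levels of this pair are uncertain. SNHG14 was at 0.587 to 1.66 RPKM in control tumors and at 0.903 to 1.58 RPKM in tumors labeled FOXA1-OE. It was at 0.433 to 0.951 RPKM in tumors labeled HNF4G-KO, which overlap the controls, and at 0.471 to 1.22 RPKM in tumors of the double genotype. In metastases of both HNF4G-KO labels SNHG14 was at 0.177 and 0.240 RPKM and at 0.115 to 0.307 RPKM, below every tumor. Of genes with means between 0.05 and 1 RPKM, 14% were lower without overlap in metastases labeled HNF4G-KO than in their tumors. In the double genotype 5.12% of such genes had groups without overlap, in either direction. SNURF was at 0.207 to 0.606 RPKM in control tumors, 0.280 to 0.756 RPKM in tumors labeled FOXA1-OE and 0.274 to 0.431 RPKM in tumors labeled HNF4G-KO. It was at 0.125 to 0.358 RPKM in tumors of the double genotype. The lowest, tumor 5, overlaps the 0.0697 to 0.187 RPKM of all 6 metastases, where SNURF rests on 4 to 10 reads per library. Without tumor 5, 1 of the 2 libraries that stand apart, the tumors of the double genotype had 0.228 to 0.358 RPKM, above all metastases.

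Across the 21 libraries, log2 levels of SNRPN and SNHG14 had a Pearson r of 0.83 (Spearman rho 0.84), as a description of points that share mice, groups and overlapping reads. The points include the metastases, whose low SNRPN chose the gene, and how many genes reach this r was not worked out. The ratio of SNRPN to SNHG14 lay between 3.36 and 11.5 in 20 libraries. In the tumor labeled FOXA1-OE 3 it was 21.6, with SNRPN the highest of that label (19.5 RPKM) and SNHG14 the lowest (0.903 RPKM). SNURF was also the lowest of that label there, at 0.280 RPKM. Without this library r was 0.88. By the same measure over 14229 genes and 21 libraries, the genes most like SNRPN were MTFR1L (Pearson r 0.940), the metallothionein MT2A (0.923), the gene ENSG00000238178 (0.921), LPXN (0.918) and CMTM7 (0.917). UBE3A, a ubiquitin ligase imprinted in neurons, had a log2 difference of 0.60 between tumors labeled HNF4G-KO and controls (adjusted p = 0.0935).

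**Figure D2:**
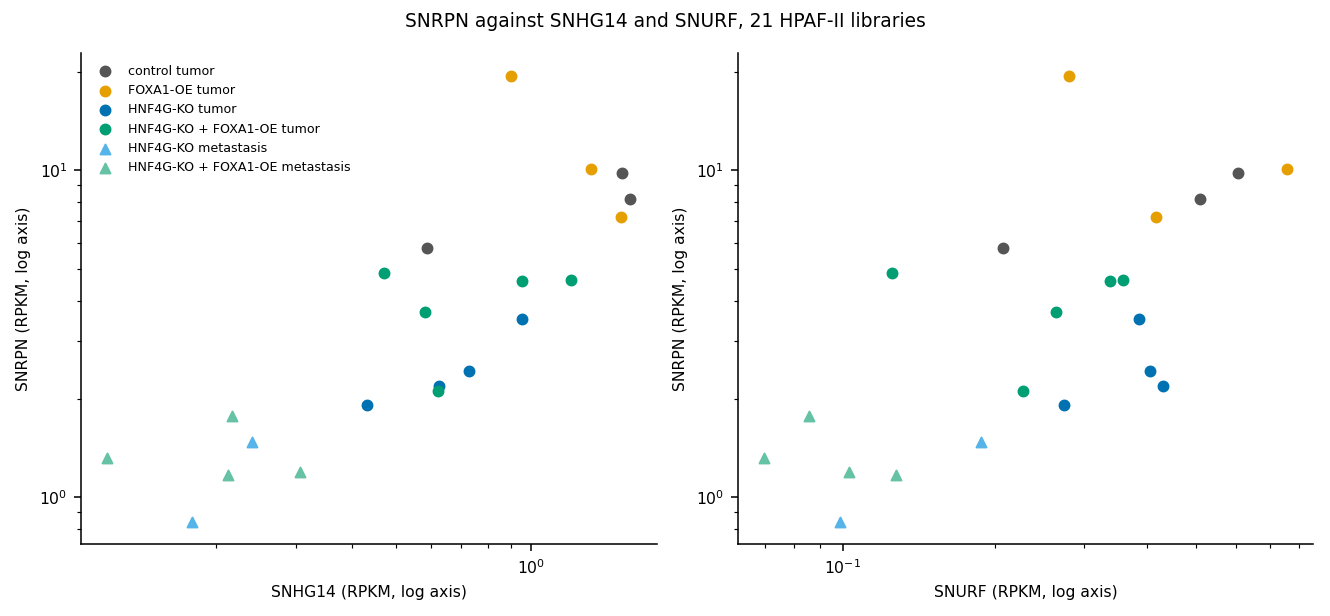
SNRPN RPKM against SNHG14 RPKM (left) and SNURF RPKM (right), all axes logarithmic, with a point for each of 21 HPAF-II libraries, circles for tumors and triangles for metastases. The metastases lie at the lower left, and the tumor labeled FOXA1-OE 3, with 19.5 RPKM of SNRPN, lies above the others.

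SNRPB encodes SmB, which takes the same place in the spliceosome as SmN in most tissues. It was far more abundant, at 138 to 416 RPKM. SNRPN amounted to 1.56% to 2.76% of SNRPB in control tumors, 0.805% to 1.59% in tumors labeled HNF4G-KO and 0.202% to 0.758% over the 6 metastases. Of 12 Sm and U1 proteins, 3 fell in tumors labeled HNF4G-KO against control, where 5.98% of all genes tested fell. They were SNRPB (-0.77, SE 0.23, limma adjusted p = 0.0435), the U1 protein SNRPC (-0.77, SE 0.15, adjusted p = 0.0102) and SNRPD3 (-0.64, SE 0.19, adjusted p = 0.0473). The median of the 12 was -0.49 on the log2 scale, against 0.01 over all genes. SNRPC also fell in tumors of the double genotype against control (-0.59, adjusted p = 0.0444) and against FOXA1-OE (-0.57, adjusted p = 0.0374). None of the 12 passed the test between metastases and tumors of either genotype, where the fits called 0.0423% of the 14179 genes for HNF4G-KO and 0.00705% for the double genotype. With the mouse as a block these calls over all genes were 66 in place of 6, and 11 in place of 1.

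CDKN1C encodes p57, an inhibitor of cyclin-dependent kinases that is expressed from the maternal copy. The gene (ENSG00000129757.13) lies on chromosome 11 from 2883213 to 2885775 on the minus strand. It was at 1.47, 1.88 and 2.48 RPKM in control tumors and at 0.870, 0.920, 0.645 and 0.956 RPKM in tumors labeled HNF4G-KO. These groups did not overlap, and 21.3% of all genes tested were lower without overlap. The difference was -0.66 on the log2 scale (SE 0.20, limma adjusted p = 0.0497), just inside the threshold. It was outside the threshold (0.0551 to 0.199) without any 1 of these 7 tumors. The filter was passed (mean of 1.71 RPKM) mainly through control and FOXA1-OE tumors, with means of 1.94 and 3.33 RPKM. The mean was 0.848 RPKM in tumors labeled HNF4G-KO and 1.18 RPKM in the double genotype. With no filter on low values this call was lost (limma adjusted p = 0.112). Tumors labeled FOXA1-OE had 4.50, 2.00 and 3.47 RPKM. Those of the double genotype had 1.24, 0.559, 0.954, 1.16 and 1.57 RPKM, all lower than the FOXA1-OE tumors, as for 9.29% of all genes. This difference was -0.96 (SE 0.20, limma adjusted p = 0.0120), and it was outside the threshold without the tumor labeled FOXA1-OE 1 (-0.76, adjusted p = 0.0643) and in a fit of only these 2 groups (adjusted p = 0.139). In metastases CDKN1C was at 0.575 and 1.13 RPKM for HNF4G-KO and 0.365 to 0.905 RPKM for HNF4G-KO + FOXA1-OE, and it was under the filter in that fit. Exact permutation tests, two-sided, gave p = 1 and p = 0.114, where the smallest possible values were 0.133 and 0.0571.

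Other inhibitors of these kinases did not share one direction. CDKN1A, the p53 target p21, rose in tumors labeled HNF4G-KO against control by a log2 difference of 1.33 (SE 0.26, limma adjusted p = 0.00884). It also rose in the double genotype against control (1.45, adjusted p = 0.00809) and against FOXA1-OE (1.24, adjusted p = 0.0109). CDKN2D (p19) fell against control (-0.69, adjusted p = 0.0263) and against FOXA1-OE (-0.63, adjusted p = 0.0290) in the double genotype. CDKN1B (p27) fell against FOXA1-OE (-0.74, adjusted p = 0.0447). Of the 6 inhibitors on the list, CDKN1C excluded, 1 was called in the HNF4G-KO comparison (12.1% of all genes), 2 in the double genotype against control (4.71% of all genes) and 3 in that against FOXA1-OE (7.86% of all genes).

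PEG10 is derived from a retrotransposon, is expressed from the paternal copy and is needed in the placenta. It lies on chromosome 7 (ENSG00000242265.5, 94656325 to 94669695, plus strand). Control tumors had 1.63, 1.90 and 4.97 RPKM and tumors labeled HNF4G-KO 5.99, 8.54, 11.9 and 6.19 RPKM. Every tumor labeled HNF4G-KO was above every control, as for 25% of all genes tested. The rise was 1.31 on the log2 scale (SE 0.35, limma adjusted p = 0.0311). Leaving out control tumor 1 or 2, or HNF4G-KO tumor 2, 3 or 4, ended this call (adjusted p up to 0.138), and the difference stayed between 1.09 and 1.68. Tumors of the double genotype had 1.74, 4.61, 3.85, 4.28 and 4.97 RPKM, all below those labeled HNF4G-KO, a log2 difference of -0.95 (SE 0.33, adjusted p = 0.203). This did not pass the test, in a comparison that called 0.0559% of all genes, where 15.2% of genes had groups without overlap (12.2% lower). In tumors labeled FOXA1-OE, PEG10 was at 2.90, 1.88 and 0.832 RPKM. Metastases had 6.26 and 7.94 RPKM for HNF4G-KO (log2 difference from tumors -0.14, adjusted p = 0.880) and 3.70, 6.23, 8.90 and 7.96 RPKM for HNF4G-KO + FOXA1-OE (0.80, adjusted p = 0.477).

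MEST encodes a hydrolase of mesoderm that is expressed from the paternal copy, and its level was the steadiest of the 4. Over all 21 HPAF-II libraries it stayed between 6.40 and 13.5 RPKM. Means were 10.5 ± 1.15 RPKM (SD, n = 3) in control tumors, 10.9 ± 2.75 (SD, n = 3) in FOXA1-OE, 10.2 ± 0.834 (SD, n = 4) in HNF4G-KO and 7.99 ± 1.13 (SD, n = 4 mice) in HNF4G-KO + FOXA1-OE. None of the 5 comparisons of tumors called MEST, with limma adjusted p-values from 0.186 to 0.979. Against controls, the double genotype was lower without overlap (-0.36, SE 0.17, adjusted p = 0.263), as for 12.2% of all genes. Without the tumor labeled FOXA1-OE 3 the double genotype was lower than FOXA1-OE by a called difference of -0.57 (adjusted p = 0.0483). Metastases of the double genotype, at 8.95 to 10.7 RPKM, were above its tumors once averaged by mouse (0.33, SE 0.14, adjusted p = 0.493). In that comparison 4.09% of all genes were higher without overlap, and the fit called no member.

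**Figure D3:**
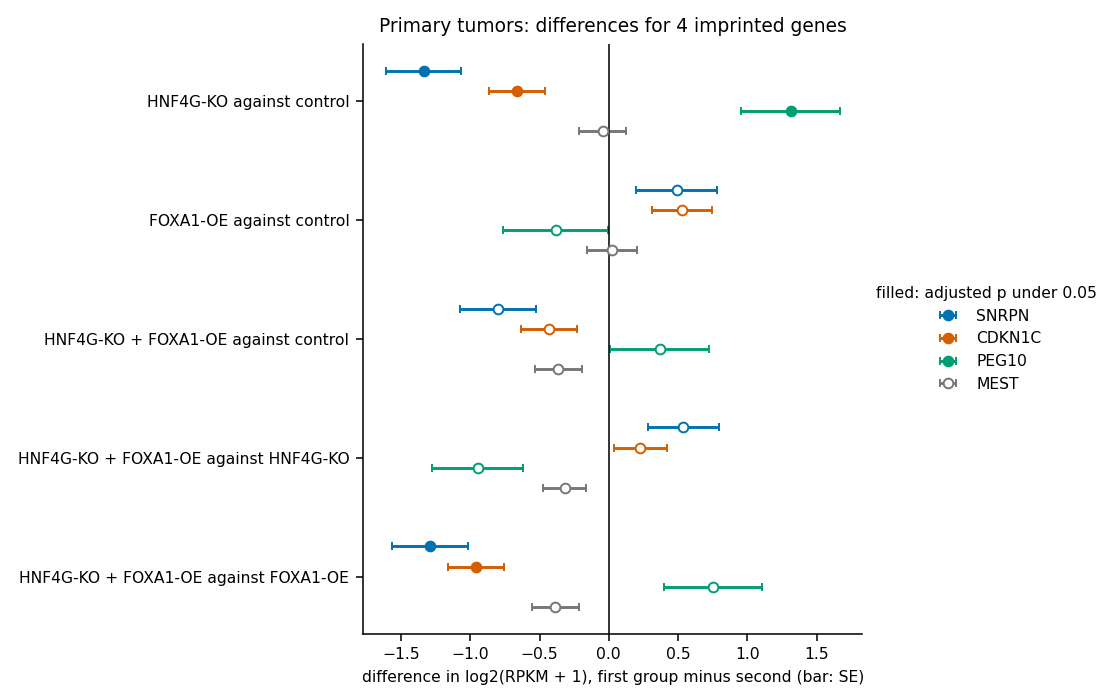
Differences in mean log2(RPKM + 1) between groups of primary tumors (horizontal axis, first group minus second) for SNRPN, CDKN1C, PEG10 and MEST, with bars of 1 SE. Filled points passed the test (limma adjusted p under 0.05). SNRPN and CDKN1C fell with HNF4G-KO both without FOXA1-OE (-1.34 and -0.66) and with it (-1.29 and -0.96).

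Whether the effect of FOXA1-OE depended on HNF4G was asked by the interaction of the 2 changes. For SNRPN the interaction was 0.05 on the log2 scale (SE 0.39, adjusted p = 0.989), and for PEG10 it was -0.56 (SE 0.50, adjusted p = 0.809). CDKN1C (-0.30, SE 0.29) and MEST (-0.34, SE 0.24) did not pass the test either. The interaction called 5 of the 14307 genes, or 0.0349%. Its standard errors are larger than those of the single comparisons.

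The other 6 genes had means under 1 RPKM and were compared by two-sided exact permutation tests. For these low genes the share whose groups do not overlap was taken from genes with means between 0.05 and 1 RPKM. These p-values are not adjusted for the 30 tests of the 5 tumor comparisons. MEG3 and DLK1 share a cluster on 14q32 in which the noncoding MEG3 is maternal and DLK1, a transmembrane regulator of differentiation, is paternal. MEG3 (chromosome 14, 100779410 to 100861031, plus strand) was at 0.0327, 0.0419 and 0.0237 RPKM in control tumors, from 27 to 43 reads. In tumors labeled HNF4G-KO it was at 0.325, 0.186, 0.165 and 0.232 RPKM, from 234 to 397 reads, a ratio of means of 6.93. All were above the controls (exact permutation p = 0.0571, the smallest that 3 against 4 allow), as were 9.17% of the low genes. Tumors of the double genotype had 0.850, 0.126, 1.22, 0.370 and 0.145 RPKM, and those labeled FOXA1-OE 0.00985, 0.0228 and 0.0120 RPKM. The ratio of their means was 34.2 (exact permutation p = 0.0571, again the smallest possible), in a comparison where 6.57% of low genes were higher without overlap. Against controls the ratio was 15.6 (exact permutation p = 0.0571), where 5.62% of low genes were higher without overlap. Tumors labeled FOXA1-OE were below all controls (exact permutation p = 0.1, the smallest that 3 against 3 allow), as were 4.91% of low genes. The spread of MEG3 within the double genotype was wide. Tumors 2 and 3, from the same mouse, had 0.126 and 1.22 RPKM.

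In metastases MEG3 was again low, at 0.0251 and 0.0528 RPKM for HNF4G-KO and 0.0921, 0.210, 0.0574 and 0.0499 RPKM for the double genotype. It was lower in the metastasis than in the tumor in each of the 4 mice with both. The share of all genes lower in each of these mice was not worked out. Metastases labeled HNF4G-KO did not overlap their tumors (exact permutation p = 0.133, the smallest that 2 against 4 allow), where 14% of low genes were lower without overlap. In the double genotype the groups overlapped (exact permutation p = 0.114), and 5.12% of low genes had groups without overlap. DLK1 showed another pattern. It was at 0.00763 to 0.0965 RPKM in control tumors and 0.0215 to 0.0608 RPKM in those labeled HNF4G-KO, from 2 to 19 reads per library. The 5 tumors of the double genotype had 0.146, 0.0829, 0.247, 0.176 and 0.259 RPKM, from 28 to 75 reads. Their level exceeded all tumors labeled HNF4G-KO, with a ratio of means of 4.74 (exact permutation p = 0.0286, the smallest that 4 against 4 allow). This p-value was the only 1 of the 30 under 0.05. Only the 6 tests of this comparison could fall under 0.05, because the smallest possible values elsewhere were 0.0571 or 0.1. In that comparison 2.95% of low genes were higher without overlap. The highest DLK1 of the double genotype was in tumor 5, a library that stands apart, and this test was not run without it. Tumors of the double genotype were also above all control tumors once averaged by mouse (ratio 4.77, exact permutation p = 0.0571). They were above all tumors labeled FOXA1-OE as well (ratio 5.57, exact permutation p = 0.0571). Tumors labeled HNF4G-KO overlapped the controls (exact permutation p = 1).

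H19, a maternal noncoding RNA, and IGF2, a paternal growth factor, share enhancers at 11p15. H19 was at 0 to 0.112 RPKM in control tumors, 0.0662 to 0.187 RPKM in tumors labeled HNF4G-KO and 0.0334 to 0.351 RPKM in those of the double genotype. The 2 metastases labeled HNF4G-KO had 0.399 and 1.38 RPKM, from 68 and 159 reads, both above all tumors of that label (exact permutation p = 0.133, the smallest possible), where 7.72% of low genes were higher without overlap. The metastasis with 1.38 RPKM of H19 also held the highest DLK1 (0.723 RPKM, 157 reads) and the highest sum of host stroma markers, 442 RPKM. The part of host RNA in these values was not tested. Metastases of the double genotype had H19 at 0.0174 to 0.534 RPKM, which overlaps their tumors (exact permutation p = 0.743).

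IGF2 was close to absent. It was at 0 reads in 7 of 21 libraries, which allows a level of up to 0.00979 RPKM (3 reads), and at 1 to 10 reads in 13 others. The exception was tumor 5 of the double genotype, with 1.25 RPKM from 474 reads. PEG3, a paternal zinc finger gene, was at 0 reads in 14 libraries and at 2 to 6 reads in 6 others, and the same tumor 5 had 0.178 RPKM from 95 reads. That tumor is 1 of the 2 libraries that stand apart in LYZ. It also had the lowest SNURF (0.125 RPKM) and SNHG14 (0.471 RPKM) of its group and the lowest MEST. Read numbers and floors cover counting error only.

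KCNQ1OT1 is a paternal antisense RNA that runs within KCNQ1. On the paternal copy it silences genes around it that are expressed from the maternal copy, CDKN1C among them. Whether the counting used strand is not given in the sources used here, so intronic reads of KCNQ1 may be among its reads. Over all 21 libraries it was at 0.137 to 0.999 RPKM, from 774 to 3610 reads. Group means ranged from 0.199 ± 0.0747 RPKM (SD, n = 2) in metastases labeled HNF4G-KO to 0.513 ± 0.314 RPKM (SD, n = 4 mice) in tumors of the double genotype, and in none of the 7 comparisons did the groups separate. KCNQ1, a potassium channel, fell in tumors of the double genotype against control (-0.77, SE 0.18, limma adjusted p = 0.0249) and against FOXA1-OE (-0.96, SE 0.18, adjusted p = 0.00534). In these comparisons 2.58% and 4.57% of all genes were called lower. KCNQ1 means were 1.33, 1.67 and 0.381 RPKM in control, FOXA1-OE and double genotype tumors, so it passed the filter through the higher groups.

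**Figure D4:**
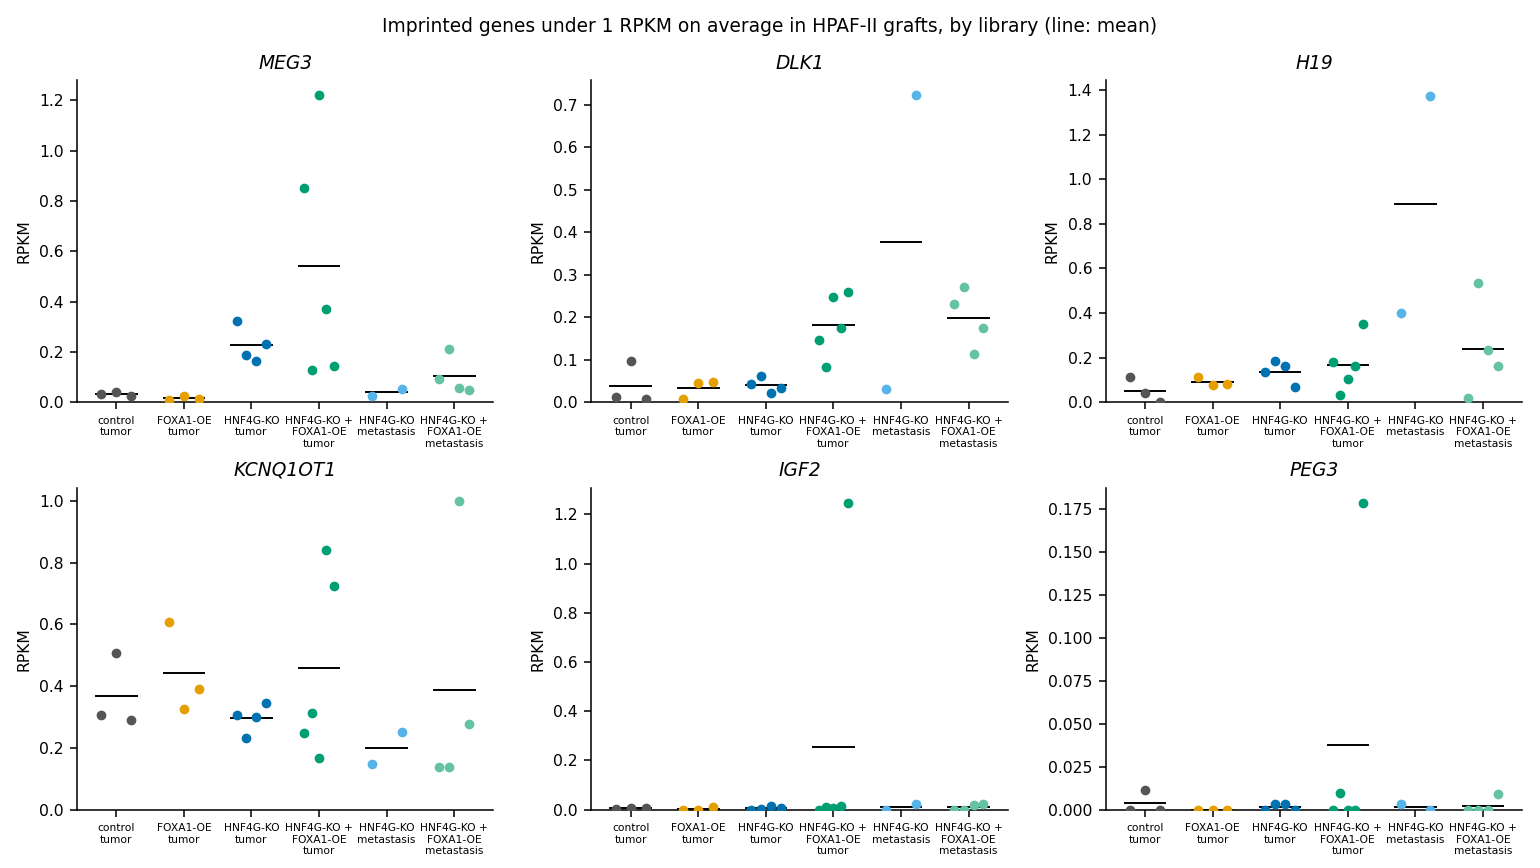
RPKM (linear axes from 0, each panel with its own range) of the 6 imprinted genes whose mean was under 1 RPKM, with a point for each of 21 HPAF-II libraries and a line at the mean over libraries of the group. MEG3 was above every control in the tumors of both HNF4G-KO labels, the metastases of the double genotype overlapped its tumors, and IGF2 and PEG3 were highest in tumor 5 of the double genotype.

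Other imprinted genes gave few calls. Of 56 neighbors and further imprinted genes on a list, 24 passed the filter in tumors, and 2 rose in HNF4G-KO against control, where 6.15% of all genes rose. They were PPP1R9A, a neighbor of PEG10 (0.41, SE 0.13, limma adjusted p = 0.0488), and NAP1L5 (0.55, SE 0.17, adjusted p = 0.0499). KCNQ1 was the one call of the double genotype against control, where 4.71% of all genes were called. Against FOXA1-OE, where 7.86% of all genes were called, it was joined by NNAT, a proteolipid, which rose (0.82, limma adjusted p = 0.0326). Of 14 factors that lay down or keep imprints, 12 were tested. SMCHD1, a silencing factor that also acts on imprinted clusters, rose in HNF4G-KO against control (0.63, SE 0.16, adjusted p = 0.0243), as did TET2, an enzyme that oxidizes methylcytosine (0.51, SE 0.16, adjusted p = 0.0469), where 6.15% of all genes rose. The de novo methyltransferase DNMT3A fell in the double genotype against FOXA1-OE (-0.48, adjusted p = 0.0290), as did 4.57% of all genes. The maintenance factors DNMT1, UHRF1 and TRIM28 passed the test in none of the 9 comparisons.

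From the IGF pathway 14 of 18 genes were tested, and 1 was called in HNF4G-KO against control, 2 in the double genotype against control and 1 in that against FOXA1-OE, where 12.1%, 4.71% and 7.86% of all genes were called. IGF2BP3, an RNA-binding protein of IGF2 mRNA, rose in HNF4G-KO against control (0.97, SE 0.30, limma adjusted p = 0.0499). IGFBP3, a binding protein that sequesters the ligands, fell in the double genotype against control (-1.45, adjusted p = 0.00949) and against FOXA1-OE (-1.50, adjusted p = 0.00494). IGFBP6 rose against control (1.62, adjusted p = 0.0409). The receptors IGF1R and IGF2R were called in no comparison. FOXA1-OE against control called 0% of the 14307 genes with limma, so none of these lists or members had a call there (659 genes had an unadjusted p under 0.05).

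In the KPC lines most of the orthologs were silent. Igf2 and Dlk1 were at 0 reads in all 8 libraries, which allows up to 0.0176 RPKM for each. Snrpn had a single read in 1 of 8 libraries, and the 0 reads of the other 7 allow up to 0.0462 RPKM, while Snrpb was at 49.3 to 96.3 RPKM. Snurf was at 0 reads throughout. H19 (0 to 2 reads), Meg3 (0 to 19 reads), Peg10 (0 to 14 reads) and Peg3 (0 to 28 reads) were no higher than 0.0558 RPKM. A fall of Snrpn like that of the human line could therefore not be seen at this depth. Epithelial markers summed to 2380 to 4627 RPKM and mesenchymal markers to 737 to 1377 RPKM in these lines.

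Mest, Cdkn1c and Kcnq1ot1 were expressed. The labels of these libraries are in doubt, because over the 12585 genes tested the difference between lines in libraries 1 and 2 and that in libraries 3 and 4 had opposite signs for 76.9% (Pearson r of -0.81 across genes, which are not independent). An exchange of tumor and metastasis labels in either pair of libraries cannot be told apart from another cause, so directions follow the labels, and the comparison over all libraries does not show that the lines are alike. Mest was at 3.08, 3.16, 1.06 and 1.48 RPKM in the 4 tumor line libraries and at 1.93, 1.74, 2.49 and 2.49 RPKM in the 4 metastasis line libraries. It was lower in the metastasis line by 0.48 and 0.60 in size on the log2 scale between libraries 1 and libraries 2 (-0.48 and -0.60), and higher by 0.76 and 0.49 between libraries 3 and libraries 4. The difference over all was 0.04 (limma adjusted p = 1), and 0% of the 12585 genes tested were called (109 at an unadjusted p under 0.05). Groups did not overlap for 0.683% of them and for 1.49% of low genes. Cdkn1c was at 0.353 to 0.605 RPKM in the tumor line and 0.378 to 0.859 RPKM in the metastasis line (two-sided exact permutation p = 0.514). Kcnq1ot1 was at 0.530 to 1.44 and 0.516 to 1.48 RPKM (exact permutation p = 0.943, where 0.0286 is the smallest possible).

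**Figure D5:**
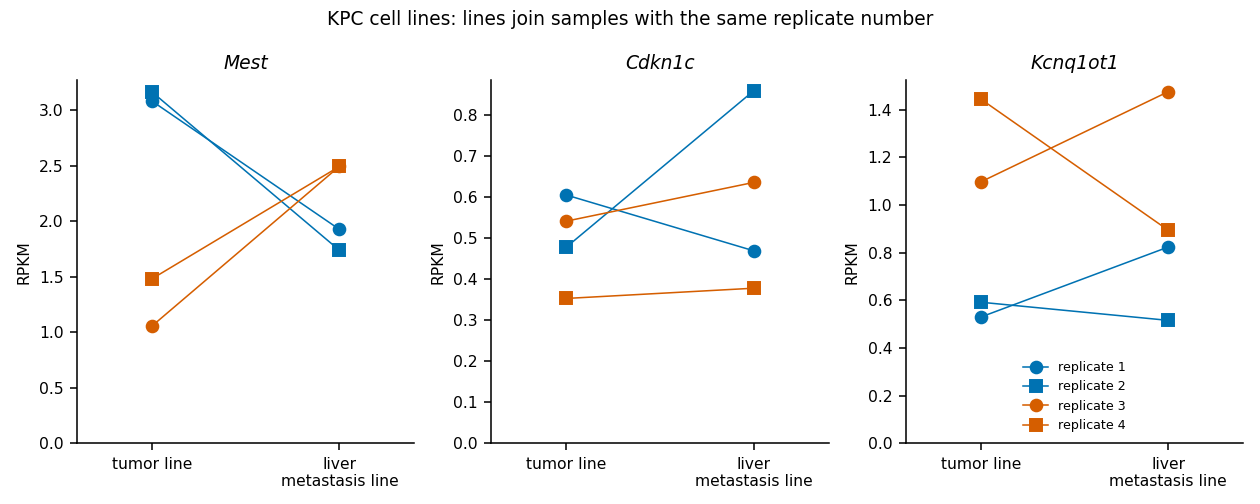
RPKM (linear axes from 0) of Mest, Cdkn1c and Kcnq1ot1 in the KPC tumor line and liver metastasis line, with lines joining libraries of the same replicate number (1 and 2 in blue, 3 and 4 in orange). Mest falls from 3.08 and 3.16 RPKM in replicates 1 and 2 and rises from 1.06 and 1.48 RPKM in replicates 3 and 4.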

How the data were processed

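RNA of 21 HPAF-II tumors and metastases and of 8 KPC line samples was sequenced with a stranded mRNA kit. The authors aligned the reads with STAR 2.6.1a and deposited RPKM values, 1 table per species. The submitters' processing notes also name featureCounts 2.0.4 and DESeq2. The mouse file also holds 12 columns of values that no label ties to a sample, which were not used. At least 99.7% of low values in each library were whole reads (tolerance 0.05 reads), from which depth and reads per gene were worked out. The paper's methods name GRCh37 and the notes hg38. Coordinates are from GENCODE release 44 (GRCh38), where 58250 of 58719 gene IDs matched.

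Values were transformed to log2(RPKM + 1), primary tumors (or metastases) that shared a mouse were averaged, and genes whose mean in a fit reached 1 RPKM were tested with limma 3.58.1 in R 4.3.3 (eBayes with trend), with Benjamini-Hochberg adjustment over all genes at 0.05. One fit held the 4 groups of tumors, 1 the tumors and metastases of the knockout genotypes, and 1 the KPC libraries. Members under the filter had two-sided exact permutation tests (scipy 1.17.1). Each fit was tested on simulated data with 200 changed genes. Metastases pair with the tumors of their own animals (correlations of deviations 0.25, 0.30, 0.27 and -0.03). Alternatives were a pseudocount of 0.1, no filter, equal medians, a fit of only the groups compared, same-mouse tumors kept apart, replicate blocks, a host stroma covariate, no spleen metastasis, KPC replicates 1 and 2 or 3 and 4 alone, and each mouse or library left out.

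The members and gene lists were chosen with earlier results of these data known. Named are the 10 members, up to 6 called genes per list and comparison, and the 5 genes most correlated with SNRPN. Other genes are named as background to these: HNF4G, FOXA1, SNURF, SNHG14, SNRPB, UBE3A and listed genes that passed no test, chosen after their values were seen.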

Additional observations from a re-analysis of the deposited data

Results flagged for a closer look

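Within groups of 4 or 5 libraries, 38 sets of member values were searched for a library far from its group (Dixon's ratio, log2 scale). For normally spread values, chance marks about 1 in 20 of such sets. That rate does not hold for sets with several values at 0 reads, such as PEG3, Meg3 and Peg10 below. Tumor 5 labeled HNF4G-KO + FOXA1-OE stood apart for IGF2, at 1.25 RPKM against at most 0.0162 RPKM in the other 4 tumors, and for PEG3, at 0.178 RPKM against at most 0.00966 RPKM. Tumor 1 of the same label was low for PEG10, at 1.74 RPKM against 3.85 to 4.97 RPKM. In the KPC tumor line, replicate 1 stood apart for Meg3 (0.0270 RPKM, 19 reads) and Peg10 (0.0539 RPKM, 14 reads), against 0 reads for Meg3 and at most 0.00731 RPKM for Peg10 in the other 3 libraries.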

How the results depend on the processing

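Of the 466 recomputed log2 differences of single members, 419 kept their result, 20 lost a call, 3 gained one and 22 changed sign. Keeping the result meant the same direction and the same side of the threshold. For SNRPN in metastases, which had no test, it meant a shift smaller than the larger SD of the 2 groups, and 2 values there moved further. The count of members called in HNF4G-KO against control (3) was 1 with no filter on low values, where SNRPN kept its call (adjusted p = 0.0311), and 0 to 2 when 1 tumor was left out. It was 0 without control tumor 2 (SNRPN adjusted p = 0.0668). Over all genes this comparison called 1736, and 285 without that tumor. In the double genotype against FOXA1-OE the members called (2) were 4 with no filter, MEG3 (adjusted p = 0.0438) and DLK1 (0.0169) among them, 0 in a fit of only the 2 groups, and 1 to 3 when 1 mouse was left out (1 without the tumor labeled FOXA1-OE 1). Against control the double genotype had 1 member called with no filter (DLK1, adjusted p = 0.0326), and 1 (SNRPN, -0.87, adjusted p = 0.0269) without the tumors labeled FOXA1-OE 3 and HNF4G-KO + FOXA1-OE 5 together, an alternative chosen after seeing the data. With KPC replicates 1 and 2 alone, a fit of 2 libraries per line, Mest was called at -0.54 (adjusted p = 0.0207), 1 member in place of 0. Over all KPC settings, 0 to 3174 of the 12585 genes were called.

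Signs turned for values near 0. With the host stroma covariate MEST was 0.074 in HNF4G-KO against control and -0.031 in its metastases against tumors. The SNRPN interaction was -0.018 with the tumor number as a block and -0.0044 with same-mouse tumors kept apart. With 1 mouse or library left out, the ranges were -0.11 to 0.033 (MEST, HNF4G-KO against control), -0.14 to 0.21 (MEST, FOXA1-OE against control), -0.24 to 0.42 (SNRPN interaction), -0.29 to 0.042 (PEG10, HNF4G-KO metastases) and -0.15 to 0.19 (Mest, KPC). The cause was not tested. The pseudocount of 0.1 gave SNRPN differences of -1.07 and -1.57 in metastases of HNF4G-KO and of the double genotype.

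Tumor numbers (correlations of deviations -0.27 to 0.63) and KPC numbers (-0.41 to 0.21) are shared only as numbers. With the tumor number as a block, SNRPN was -1.44 in HNF4G-KO against control (adjusted p = 0.0167) and CDKN1C was outside the threshold (0.0522). Paired by mouse, metastases gave SNRPN differences of -0.76 and -1.13 and no call of a member, and the KPC block left Mest at 0.04. No other call of a member was changed by a block. Counts of genes called over all settings ranged from 285 to 5597 (HNF4G-KO against control), 0 to 3 (FOXA1-OE against control), 0 to 75 (double genotype against HNF4G-KO), 115 to 1250 (against control), 91 to 1441 (against FOXA1-OE), 0 to 13 (interaction), 0 to 355 and 0 to 57 (metastases of HNF4G-KO and of the double genotype) and 0 to 3174 (KPC). Depth limits IGF2 and PEG3, and in KPC lines Snrpn, Igf2, Dlk1, H19 and Peg10.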

Other observations

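In the 4 mice that gave a tumor and a metastasis, H19 and MEST were higher in the metastasis of each, once averaged by mouse. The log2(RPKM + 1) differences were 0.0053 to 1.16 for H19 and 0.0082 to 0.22 for MEST. KCNQ1OT1 was lower in each, by differences of -0.53 to -0.10. These directions were noticed after the values were seen, and in the fit paired by mouse MEST was not called. The share of all genes with 1 direction in all 4 mice was not worked out. For H19, tumor 1 of the double genotype had 0.178 RPKM. Its mouse gave a spleen metastasis with 0.0174 RPKM (3 reads) and 1 in fat with 0.534 RPKM. In another mouse H19 was at 0.160 RPKM in the tumor and 0.164 RPKM in the metastasis.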
